A study of Mus musculus with 5 samples.

Results

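The 10 genes described here are WNT pathway genes of sorted mouse hair follicle stem cells: the TCF/LEF transcription factor genes Lef1, Tcf7, Tcf7l1 and Tcf7l2, the pathway target and feedback genes Axin2 and Nkd2, the receptor gene Fzd10, and the genes of the secreted proteins Sfrp1, Dkk3 and Wif1. They were taken by symbol from a list chosen with earlier results of these data known. All 10 were present among the 30840 features of the deposited table and passed the filter on low counts, beside 22181 genes tested in all. RNA was sequenced in 5 libraries, 2 Control and 3 PRC1 i2KO, named here by the numbers of their titles. The series addresses how H2AK119 ubiquitination, the histone mark laid down by Polycomb repressive complex 1 (PRC1), bears on the quiescence of these cells. Every mouse was Ring1a-/- with Ring1b flox/flox, and from postnatal day 50 its skin was treated with 1% RU-486 over 10 days. The PRC1 i2KO mice also carried K15-CrePR1, a keratin 15-driven Cre recombinase that RU-486 activates, and the Control mice carried no Cre, so the groups differ by the transgene as well as by the deletion. Skin was taken at postnatal day 70, and sorting kept CD34+ EpCAM+ cells with high α6-integrin and without Sca1, 50000 per sample. No label ties the samples to separate mice, and a p-value here therefore reflects the spread among these samples, which may be technical.

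In canonical WNT signalling, WNT ligands bind Frizzled receptors, β-catenin escapes the destruction complex in which Axin proteins act as scaffolds, and β-catenin then binds TCF/LEF factors on DNA and turns their target genes on. Secreted proteins such as SFRP1 and WIF1 bind WNT ligands outside the cell and reduce signalling. In the hair follicle, Tcf7l1 (TCF3) and Tcf7l2 (TCF4) are known as factors of resting bulge stem cells that mostly repress targets, while Lef1 marks the activated hair germ and the matrix of the growing follicle, and WNT activity accompanies the start of a new hair cycle.

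Total counts ranged from 11626006 to 43307694 per library. CPM here is a gene's count relative to its library's scaled size, and TPM is a level that is also corrected for transcript length. Rnf2, the floxed gene (Ring1b), measured between 27.7 and 39.9 CPM over the 5 libraries, and the groups overlapped. In TPM it was lower in each PRC1 i2KO library, as 23.0% of all tested genes were. Its levels were 16.8, 12.9 and 11.7 against 25.1 and 24.4 TPM (limma on log2(TPM + 1), adjusted p = 0.434). Reads of retained exons also enter these values, so they are no check of the deletion. Over 12 markers of sorted bulge cells the median log2 fold change was -0.02. They ranged from -1.37 for Fgf18 to 0.70 for Krt14 (edgeR adjusted p = 0.188 and 0.240). Krt15 lay between 1779 and 3339 TPM, with overlapping groups. Fgf18, Lhx2 and Nfatc1 lay below both controls in TPM in every PRC1 i2KO library, Fgf18 at 63.4 and 52.7 against 21.4, 12.7 and 18.3 TPM. Of the sort markers, Itga6 (α6-integrin) and Epcam overlapped between the groups in TPM (log2 fold changes -0.02 and 0.24, edgeR adjusted p = 0.984 and 0.731). Cd34 (lower) and Ly6a (higher) separated the groups without passing the test, orders that 15.3% and 14.6% of all tested genes showed in CPM. Cd34 measured 477 and 326 CPM in Control 2 and 3, against 298, 292 and 164 CPM in PRC1 i2KO 1, 2 and 3 (log2 fold change -0.68, edgeR adjusted p = 0.422). Ly6a, which encodes the sorted-out antigen Sca1, measured 1.62 and 0.793 CPM, against 3.12, 4.78 and 4.93 CPM (1.79, edgeR adjusted p = 0.398). The part of these differences in the values of the 10 genes was not tested. The 20 mitosis genes summed to between 22.4 and 31.9 TPM in the controls and to 91.1, 38.3 and 218 TPM in PRC1 i2KO 1, 2 and 3 (median log2 fold change 2.82). The 11 interfollicular epidermis genes summed to between 1309 and 1725 TPM in the controls and between 1289 and 3823 TPM in PRC1 i2KO, with the highest value in PRC1 i2KO 2. Their median log2 fold change was 1.28, with genes from -0.43 (Klf4) to 1.62 (Casp14 and Ly6d), and edgeR's adjusted p was at least 0.164 for each. In bulk RNA, fewer cells of a type and less RNA per cell cannot be told apart.

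Lef1 had the smallest p of the 10 genes, and its transcripts start at more than 1 place, so the windows before 3 of its RefSeq starts are shown first (the window of another start overlaps the first of these), beside that of Axin2, a widely used WNT target. Each run is the 250 bases before a start in RefSeq's GRCm38.p6 annotation, read 5′ to 3′ on the plus strand, and capitals mark CTTTG or its reverse complement CAAAG, the core letters of TCF/LEF recognition sequences. The windows are Lef1 at chr3:131110047-131110296 (upstream start), Lef1 at chr3:131112541-131112790 (between exons of the transcripts from the upstream start), Lef1 at chr3:131156044-131156293 (also between exons of those transcripts) and Axin2 at chr11:108920099-108920348.
Lef1 upstream start: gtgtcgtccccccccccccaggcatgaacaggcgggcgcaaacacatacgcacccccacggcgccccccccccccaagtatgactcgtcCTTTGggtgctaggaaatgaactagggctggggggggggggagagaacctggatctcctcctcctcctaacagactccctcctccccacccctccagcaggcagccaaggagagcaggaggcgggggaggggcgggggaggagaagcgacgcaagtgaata
Lef1 second start: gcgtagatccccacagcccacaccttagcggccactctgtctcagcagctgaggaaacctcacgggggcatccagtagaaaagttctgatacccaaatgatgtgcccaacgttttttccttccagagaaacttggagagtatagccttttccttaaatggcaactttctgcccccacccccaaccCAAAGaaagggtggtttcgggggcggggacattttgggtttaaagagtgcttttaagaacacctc
Lef1 downstream start: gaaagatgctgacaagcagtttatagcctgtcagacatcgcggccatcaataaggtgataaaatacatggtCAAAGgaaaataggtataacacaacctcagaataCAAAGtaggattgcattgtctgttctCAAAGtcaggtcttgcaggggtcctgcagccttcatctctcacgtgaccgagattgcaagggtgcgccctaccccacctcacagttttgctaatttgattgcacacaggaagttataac
Axin2 start: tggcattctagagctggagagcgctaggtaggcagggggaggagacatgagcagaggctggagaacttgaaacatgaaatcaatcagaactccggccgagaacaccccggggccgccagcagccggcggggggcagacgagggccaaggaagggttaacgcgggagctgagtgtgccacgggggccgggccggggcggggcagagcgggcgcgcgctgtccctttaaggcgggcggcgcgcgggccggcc
The core was found 1, 1 and 3 times in the Lef1 windows and 0 times in the Axin2 window. Of 32851 such windows in the table, on either strand, 48.6% hold it, so a match in these windows is common. The longer form CTTTGAT or ATCAAAG, which contains the core, was in none of these 4 windows and in 3.21% of all windows. Windows before starts were also present for Tcf7, Tcf7l1, Tcf7l2, Fzd10, Wif1 and Nkd2. Outside Lef1, the core was found 1 time each in the windows of Fzd10, Tcf7l1 and Wif1 and in both of Tcf7l2, and 0 times in those of Tcf7 and Nkd2. The notes of the submitters name another build, mm39, so these coordinates belong to RefSeq's windows and not to the counts.

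Among the effectors, Lef1 lay above both controls in each PRC1 i2KO library, but did not pass the test. Lef1 (ENSMUSG00000027985.14) measured 14.2 CPM in Control 2 and 28.3 CPM in Control 3, against 64.8, 45.7 and 66.0 CPM in PRC1 i2KO 1, 2 and 3. The groups did not overlap, although Control 3 had close to double the level of Control 2. The means were 21.3 ± 9.98 CPM (SD, n = 2) and 58.8 ± 11.4 CPM (SD, n = 3), 2.79-fold apart (log2 fold change 1.48 ± 0.34 (SE), edgeR adjusted p = 0.177, unadjusted p = 0.00192). DESeq2 gave the same size with an adjusted p of 0.00227, the test without a filter on low counts 0.0492, and over the 15 alternatives the adjusted p lay between 0.00227 and 0.814, so whether Lef1 is called depends on the settings. Left out in turn, Control 2 gave a log2 fold change of 1.06 (edgeR adjusted p = 0.814) and Control 3 one of 2.06 (adjusted p = 0.308). The libraries had the same order for Lef1 CPM as for the summed mitosis genes, with Control 2 lowest, then Control 3, PRC1 i2KO 2, PRC1 i2KO 1 and PRC1 i2KO 3. In Lef1 TPM both controls were also lowest, but PRC1 i2KO 3, with the highest mitosis sum, was the lowest of its group (20.2 TPM, against 22.3 in PRC1 i2KO 2 and 27.9 in PRC1 i2KO 1). The part of proliferating cells in the Lef1 values was not tested.

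Tcf7 (TCF1), the other member of the family often described as an activator and a target of the pathway, also lay higher in each PRC1 i2KO library, by less. It measured 11.8 CPM in Control 2 and 16.7 CPM in Control 3, against 25.2, 19.0 and 19.2 CPM in PRC1 i2KO 1, 2 and 3. The gap between Control 3 and the nearest PRC1 i2KO library was smaller than the distance between both controls, and edgeR put the difference at 0.57 ± 0.32 (log2 scale, SE; adjusted p = 0.570).

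The factors of resting bulge cells were near level between the groups in counts. Tcf7l1 measured 31.4 CPM in Control 2 and 43.5 CPM in Control 3, against 38.7, 33.2 and 37.3 CPM in PRC1 i2KO 1, 2 and 3, all inside the range of the controls (log2 fold change -0.04 ± 0.25 (SE), edgeR adjusted p = 0.975). That sign turned without Control 3 (0.22) and in limma-voom (0.06). Tcf7l2 measured 237 CPM in Control 2 and 254 CPM in Control 3, against 234, 227 and 230 CPM in PRC1 i2KO 1, 2 and 3. These values were lower in each PRC1 i2KO library, the narrowest gap being from 237 to 234 CPM, with a difference of -0.09 ± 0.15 (log2 scale, SE; edgeR adjusted p = 0.881). In TPM both genes lay below both controls in every PRC1 i2KO library, Tcf7l1 at 14.8 and 15.7 against 14.1, 11.3 and 10.4 TPM, and Tcf7l2 at 217 and 170 against 131, 158 and 135 TPM. That order was shown by 23.0% of all tested genes in TPM, where the median log2 fold change of all genes on the log2(TPM + 1) scale was -0.19, against 0.01 in counts. On that scale the fold changes were -0.34 for Tcf7l1 and -0.45 for Tcf7l2 (limma adjusted p = 0.680 and 0.518). Relative to that median they were -0.15 and -0.25, values that were not tested.

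**Figure D1:**
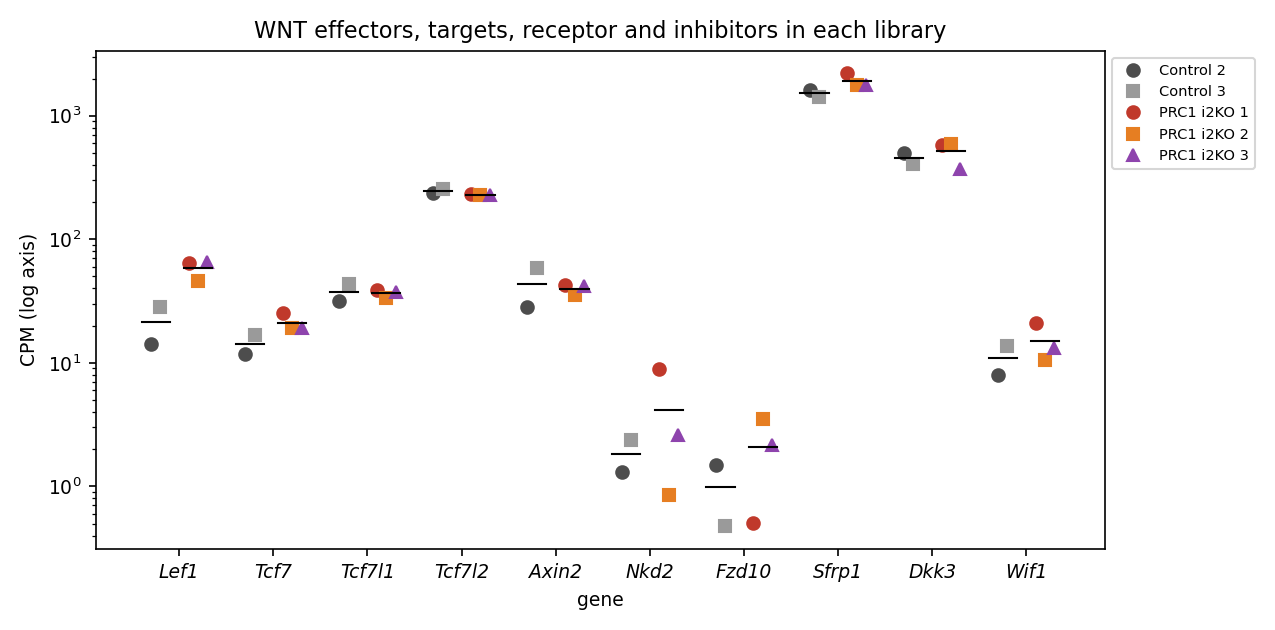
CPM of the 10 WNT genes (log axis) in each library, with a point per library and a line at the mean of each group. All 3 PRC1 i2KO libraries lie above both controls for Lef1, Tcf7 and Sfrp1, below them for Tcf7l2, and overlap with them for the other 6 genes.

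The make-up of the TCF/LEF family was described within each library from TPM, which allows levels of different genes to be set side by side. Tcf7l2 gave most of the summed TPM of the family in every library, 89.1% and 82.5% in the controls and 72.2%, 79.1% and 78.4% in PRC1 i2KO 1, 2 and 3. Lef1 gave 2.15% and 6.80% in the controls and 15.4%, 11.2% and 11.7% in PRC1 i2KO 1, 2 and 3. Lef1 was thus the lowest of the 4 factors in Control 2, the third in Control 3 and the second in all 3 PRC1 i2KO libraries. The ratio of Lef1 to Tcf7l1 TPM was 0.352 and 0.893 in the controls and 1.99, 1.97 and 1.94 in PRC1 i2KO 1, 2 and 3. The summed TPM of the family was 243 and 206 in the controls and 181, 199 and 172 in PRC1 i2KO. The share of Lef1 lay 8.30 percentage points higher in PRC1 i2KO on average, 5.98 points without Control 2 and 10.63 without Control 3. With each gene's length held at its mean over libraries, the Lef1 share was 3.25% and 5.73% in the controls and 12.9%, 9.93% and 13.5% in PRC1 i2KO, and Lef1 stood in the third place in both controls and in the second in all 3 PRC1 i2KO libraries.

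**Figure D2:**
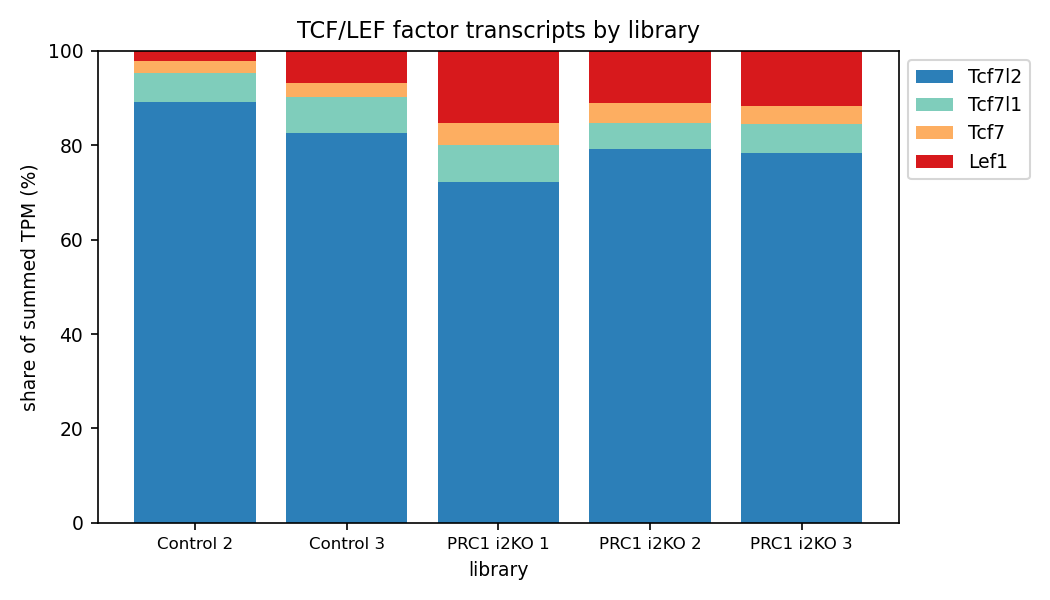
Share (%) of the summed TPM of Tcf7l2, Tcf7l1, Tcf7 and Lef1 in each library, as stacked bars. The Lef1 share lies between 11.2% and 15.4% in PRC1 i2KO and at 2.15% and 6.80% in the controls, while Tcf7l2 is the largest in all 5 libraries.

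The counts and TPM of a gene together give the mean length of the transcripts they were assigned to, which shows how far a TPM level rests on the choice of transcript. For Sfrp1, Dkk3 and Fzd10, which have 1 annotated transcript each, this length was 4372, 3359 and 3250 bases in all 5 libraries, as annotated. For Lef1, with 8 annotated transcripts of 345 to 3656 bases, it was 3395 and 1941 bases in Control 2 and 3, and 1887, 2126 and 2770 bases in PRC1 i2KO 1, 2 and 3. Control 2 stood at the length of the protein-coding transcripts from the upstream start (3357 to 3482 bases), while the other 4 libraries lay below it, so the controls differed from each other more than the groups did. A ratio between both controls as large as that of Lef1 (1.75) was found in 2.06% of 5967 genes with several transcripts and at least 200 counts in every library. The Lef1 TPM of both controls, 5.22 and 14.0, accordingly differ more than their CPM, and PRC1 i2KO 1, 2 and 3 were at 27.9, 22.3 and 20.2 TPM. Tcf7l1 lengths were 2681 and 2596 bases in the controls and 2207, 2967 and 3016 bases in PRC1 i2KO, and Axin2 lengths 2817 and 2679 against 2347, 2423 and 2851 bases. Tcf7 kept between 2351 and 2460 bases and Tcf7l2 between 1477 and 1543 bases. The Tcf7l2 lengths, though stable, were below those of its protein-coding transcripts from the upstream end of the gene (2135 to 3715 bases). Its TPM and its share of the family thus also rest on the choice of transcript. With the implied lengths entered as offsets, the Lef1 log2 fold change was 1.55 (edgeR adjusted p = 0.349).

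**Figure D3:**
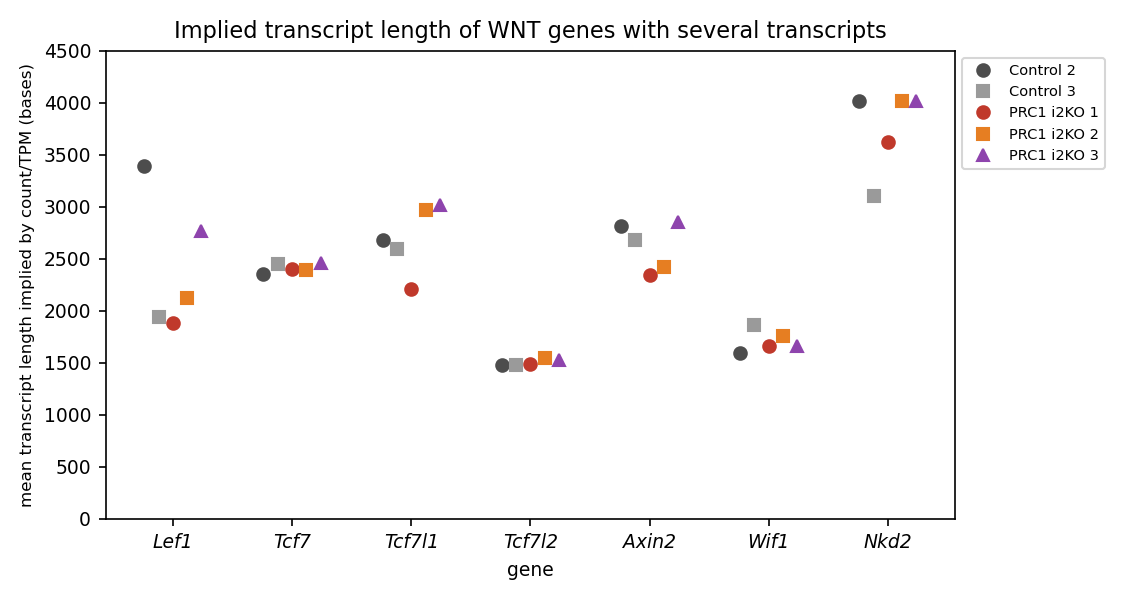
Mean transcript length (bases) implied by the ratio of deposited count to TPM for the 7 WNT genes with several annotated transcripts, with a point per library. Lef1 spans 1887 to 3395 bases with the controls at 3395 and 1941, while Tcf7 and Tcf7l2 stay within 2351 to 2460 and 1477 to 1543 bases.

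Axin2 and Nkd2 are negative feedback genes that canonical WNT signalling is known to induce, and in both the groups overlapped. Axin2 measured 28.2 CPM in Control 2 and 58.9 CPM in Control 3, against 42.3, 35.7 and 41.7 CPM in PRC1 i2KO 1, 2 and 3. All PRC1 i2KO values lay between both controls, and edgeR put the difference at -0.12 ± 0.32 (log2 scale, SE; adjusted p = 0.933). Its sign rested on the pair of controls, with -0.56 without Control 2 and 0.51 without Control 3, and it was positive in limma-voom (0.17) and with length offsets (0.03). Nkd2, which encodes a protein that binds Dishevelled, was low, with 64 counts in Control 2 and 30 in Control 3, against 195, 38 and 82 in PRC1 i2KO 1, 2 and 3. The means were 1.84 ± 0.764 CPM (SD, n = 2) and 4.13 ± 4.25 CPM (SD, n = 3). In CPM, PRC1 i2KO 1 was the highest of all libraries and PRC1 i2KO 2 the lowest, and edgeR put the difference at 1.17 ± 0.98 (log2 scale, SE; adjusted p = 0.728), or at -0.08 without PRC1 i2KO 1.

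Fzd10, a Frizzled receptor gene, was close to the limit of detection. It had 74 counts in Control 2 and 6 in Control 3, against 11, 157 and 68 in PRC1 i2KO 1, 2 and 3. The means were 0.989 ± 0.726 CPM (SD, n = 2) and 2.07 ± 1.52 CPM (SD, n = 3). The groups overlapped, with Control 3 and PRC1 i2KO 1 low together and PRC1 i2KO 2 highest (log2 fold change 1.03 ± 1.01 (SE), edgeR adjusted p = 0.774). At this depth a difference of that size could not be told from the spread between libraries.

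Among the secreted proteins, Sfrp1 was the most abundant of the 10 genes in TPM and lay somewhat higher in PRC1 i2KO in counts. It measured 1625 CPM in Control 2 and 1409 CPM in Control 3, against 2200, 1782 and 1778 CPM in PRC1 i2KO 1, 2 and 3. The groups did not overlap, with a difference of 0.34 ± 0.15 (log2 scale, SE; edgeR adjusted p = 0.473, unadjusted p = 0.0560). In TPM they did, at 458 and 294 in the controls and at 389, 404 and 336 in PRC1 i2KO (0.03 on the log2(TPM + 1) scale, or 0.23 relative to the median of all genes). Dkk3, a Dickkopf-related protein whose effect on WNT signalling is less settled than that of DKK1, measured 498 CPM in Control 2 and 404 CPM in Control 3, against 575, 595 and 372 CPM in PRC1 i2KO 1, 2 and 3. PRC1 i2KO 3 was the lowest library and the others lay above both controls (log2 fold change 0.19 ± 0.22 (SE), edgeR adjusted p = 0.821), and on the log2(TPM + 1) scale the sign was negative, at -0.14, or 0.06 relative to the median of all genes. Wif1, a secreted WNT inhibitor, measured 7.92 CPM in Control 2 and 13.8 CPM in Control 3, against 21.0, 10.5 and 13.2 CPM in PRC1 i2KO 1, 2 and 3. Only PRC1 i2KO 1 lay outside the range of the controls (0.46 ± 0.43 (SE), edgeR adjusted p = 0.762), and without it the log2 fold change was 0.13.

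As a group, 0 of the 10 genes passed edgeR's threshold in either direction, where 0.126% of all tested genes were called higher and 0% lower. At an unadjusted p under 0.05, 1 gene (Lef1) was higher and 0 were lower, against 7.43% and 3.51% of all tested genes. DESeq2 called Lef1 higher and 0 lower (3.43% and 0.750% of all genes), and limma-voom called 0 (0.0180% and 0%). With length offsets edgeR called 0 (0.0631% and 0.00451%). In CPM, 3 genes (Lef1, Tcf7 and Sfrp1) lay above and 1 (Tcf7l2) below both controls in each PRC1 i2KO library, orders that 14.6% and 15.3% of all tested genes showed. In TPM, 2 genes (Lef1 and Tcf7) lay above and 2 (Tcf7l1 and Tcf7l2) below, against 7.01% and 23.0% of all tested genes. The median log2 fold change of the 10 was 0.40, with 7 positive and 3 negative, against 0.01 over all tested genes. Because the 10 were chosen with earlier results of these data known, this contrast is a description only. The median of the 10 was 0.12 without PRC1 i2KO 1, the library in which Tcf7, Sfrp1, Wif1 and Nkd2 were all highest. The median shift of the 10 genes from the control mean, on log2(CPM + 0.5), was 0.45, 0.12 and 0.28 in PRC1 i2KO 1, 2 and 3.

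The order of the 10 levels in TPM was nearly the same in both groups apart from Lef1. In the controls it ran from Sfrp1 (mean 376 TPM) through Tcf7l2 (193), Dkk3 (148), Axin2 (16.6), Tcf7l1 (15.3), Lef1 (9.62), Wif1 (6.90) and Tcf7 (6.44) to Nkd2 (0.556) and Fzd10 (0.357). The ranges over libraries overlapped between Tcf7l2 and Dkk3, between Axin2 and Tcf7l1, between Lef1 and Wif1, and between Nkd2 and Fzd10, so these neighbours were not apart by range. Within each control, however, Tcf7l2 lay above Dkk3 (217 against 185 TPM in Control 2, 170 against 111 TPM in Control 3), while the other pairs changed order. In PRC1 i2KO, Lef1 (23.5 TPM, range 20.2 to 27.9) stood in the fourth place, apart from Axin2 (14.0 TPM, range 12.4 to 15.1) and from Dkk3 (135 TPM, range 92.7 to 178). Tcf7l2 and Dkk3, Axin2 and Tcf7l1, Wif1 and Tcf7, and Nkd2 and Fzd10 overlapped there in range. Of these pairs only Axin2 and Tcf7l1 kept their order within every PRC1 i2KO library (14.4 against 14.1, 15.1 against 11.3 and 12.4 against 10.4 TPM).

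A wider list of 82 WNT pathway genes, without ligands and including the 10, was described in the same way. In the table were 78, of which 70 were tested, with a median log2 fold change of 0.09 (41 positive, 29 negative). By edgeR 0 were called in either direction, while 8 higher and 5 lower ones had an unadjusted p under 0.05. These compare with 7.43% and 3.51% of all tested genes. Over the 78 in the table, DESeq2 made 4 calls higher (Lef1, Ascl2, Cd44 and Notum, the last outside the 70 tested by edgeR) and 1 lower (Fzd3), beside 3.43% and 0.750% of all genes. In CPM, 14 of the 70 lay above and 12 below both controls in each PRC1 i2KO library, beside 14.6% and 15.3% of all tested genes. By role, the median was 0.26 for 12 secreted inhibitors, -0.10 for 21 receptors and R-spondin system genes, 0.21 for 17 intracellular transducers and inhibitors, 0.05 for 13 nuclear effectors and 0.24 for 18 commonly cited targets, some genes being in more than 1 role. On the log2(TPM + 1) scale the median of the list was -0.13 where that of all genes was -0.19.

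The smallest p in the wider list, beside Lef1, belonged to targets, a receptor gene and an R-spondin gene that did not pass edgeR. Ascl2, a transcription factor gene known as a WNT target in intestinal stem cells, measured 0.223 CPM in Control 2 and 0.555 CPM in Control 3, against 3.80, 3.74 and 7.46 CPM in PRC1 i2KO 1, 2 and 3 (log2 fold change 3.77 ± 0.84 (SE), edgeR adjusted p = 0.171, DESeq2 6.91e-05). Cd44, a hyaluronan receptor gene, was at 170 and 185 CPM against 368, 242 and 381 CPM (0.90 ± 0.22, edgeR adjusted p = 0.200, DESeq2 0.0142). Ccnd1, which encodes the G1 cyclin D1, was at 108 and 105 CPM against 206, 153 and 146 CPM (0.67 ± 0.21, edgeR adjusted p = 0.284). In CPM the groups did not overlap in these 3 genes, which were picked by their small p, and 14.6% of all tested genes lay higher in this way. In TPM the groups overlapped for Ccnd1, at 36.1 and 25.7 against 43.0, 40.9 and 32.6 TPM. Rspo1, an R-spondin that enhances WNT receptor signalling, was at 1.40 and 0.397 CPM against 4.03, 4.13 and 4.27 CPM (2.15 ± 0.77, edgeR adjusted p = 0.352). It had 5 counts in Control 3, and its groups overlapped in TPM, at 2.11 and 0.221 against 1.79, 4.14 and 3.26 TPM. Fzd3, a Frizzled receptor gene, was lower in PRC1 i2KO, from 364 and 330 CPM to 228, 239 and 186 CPM (-0.67 ± 0.17, edgeR adjusted p = 0.210, DESeq2 0.0381).

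Of the most abundant genes of each role, Cd44 is given above, and the others outside the 10 follow. The R-spondin receptor gene Lgr5, also a WNT target and a bulge marker, measured 449 CPM in Control 2 and 471 CPM in Control 3, against 322, 315 and 382 CPM in PRC1 i2KO 1, 2 and 3, lower in each (-0.44 ± 0.16, edgeR adjusted p = 0.359). Its paralogue Lgr4 had a log2 fold change of 0.23, the receptor gene Fzd7 one of -0.22, the secreted antagonist gene Sostdc1 one of -0.26, and Sox9 one of 0.03. Of the destruction complex, Csnk1a1 and Apc stood at 0.21 and Gsk3b at -0.31. Ctnnb1, which encodes β-catenin, stood at 0.21 and the β-catenin co-factor gene Bcl9l at -0.33. For these genes edgeR's adjusted p was at least 0.359.

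**Figure D4:**
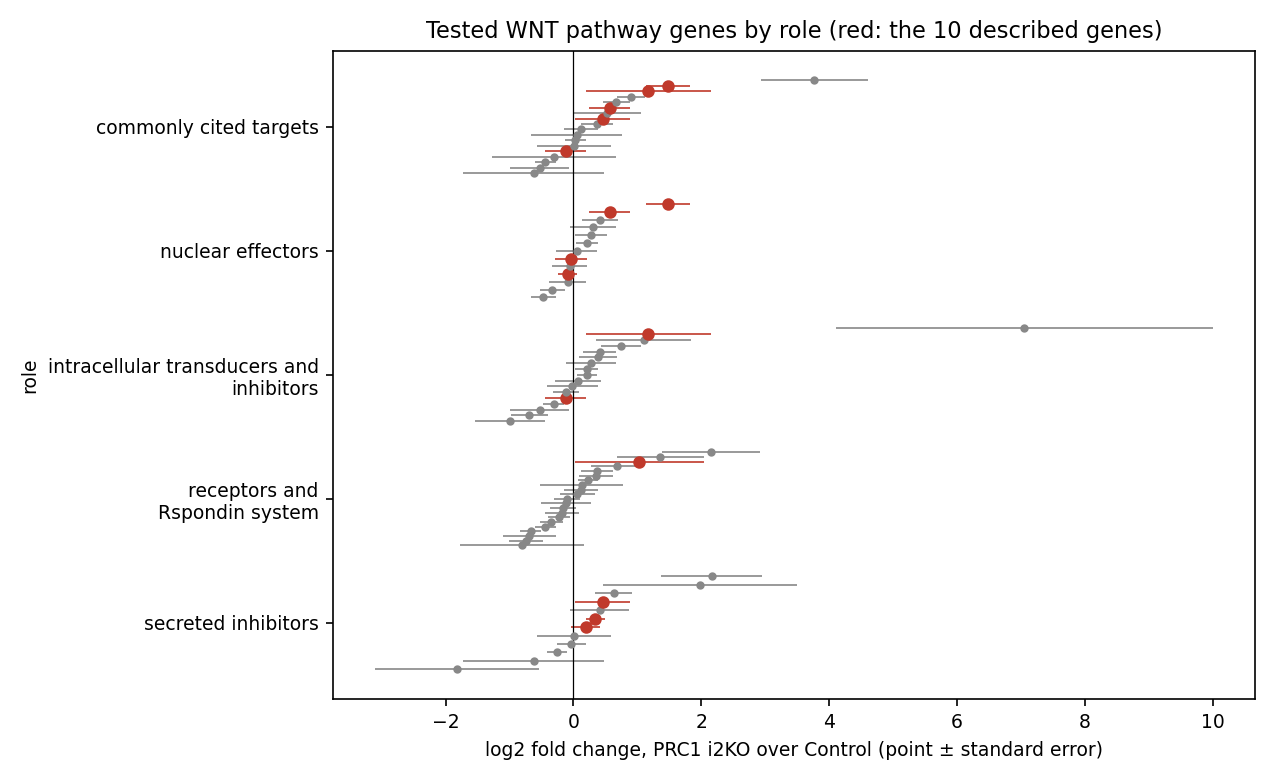
Log2 fold change (PRC1 i2KO over Control) with its standard error for the 70 tested WNT pathway genes by role, with a gene shown in each role it has and the 10 described genes in red. Role medians lie between -0.10 and 0.26, Lef1 stands at 1.48, and the point at 7.05 is Cxxc4, named here after its value was seen, which had no control count, so that its fitted value is no measure of size.

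Markers of cell types other than bulge cells gave mixed values. Of 16 T cell and other immune markers 14 were in the table, and they summed to between 15.8 and 27.8 TPM in the controls and between 28.6 and 34.7 TPM in PRC1 i2KO. Trbc2 was the highest of these in every library but PRC1 i2KO 1, where H2-Ab1 was. Trbc2 measured 6.28 and 12.9 TPM in the controls against 12.2, 18.7 and 14.2 TPM in PRC1 i2KO 1, 2 and 3. H2-Ab1 measured 0.0467 and 4.71 against 16.3, 3.31 and 6.03 TPM (edgeR adjusted p = 0.606 and 0.551). The median log2 fold change of the 10 tested was 0.34. Trac had 0 counts in 4 libraries and 5 in PRC1 i2KO 3, Cd3g at most 13 counts in any library, and Lck 0 counts in the controls and 4 to 6 in PRC1 i2KO. Cd3d had 74 to 331 counts over the libraries, and Cd3e had 115 in PRC1 i2KO 2 and at most 4 elsewhere. Cd8a had 215 counts in Control 2 and at most 13 elsewhere, and Ptprc had 36 to 210 with the most in Control 2. Of 20 dermal papilla and fibroblast markers 17 were in the table, and they summed to between 1392 and 2079 TPM in the controls and between 1169 and 1571 TPM in PRC1 i2KO, most of it from Postn. The median log2 fold change of the 11 tested was 1.69, with Pdgfra at 3.11 (edgeR adjusted p = 0.0502) and Vim at 4.27 (adjusted p = 0.287), while Col3a1 had 0 counts in 4 libraries and Lum at most 5 counts in any. Dcn had 99 counts in PRC1 i2KO 3 and at most 8 elsewhere, and Twist2 had 11 in PRC1 i2KO 3 and 0 elsewhere. The 8 melanocyte markers in the table, of 9, summed to 44.7 and 71.3 TPM in the controls and to between 20.8 and 38.2 TPM in PRC1 i2KO. Most of that sum was Mitf (18.3 to 66.8 TPM), while Dct, Pmel and Tyr reached at most 2.43 TPM. The 6 endothelial markers in the table, of 8, summed to between 5.79 and 12.3 against 6.61 to 11.4 TPM, and the 12 hair germ, matrix and shaft ones, of 13, to 110 and 117 against 94.7 to 134 TPM. The part of these cell types in the values of the 10 genes was not tested.

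In the reference annotation other genes overlap Lef1, Tcf7, Tcf7l1, Tcf7l2, Axin2 and Nkd2, and the sources used here do not give whether strand was used in counting. For Lef1 these are Gm42449, with 17 to 36 counts per library, and Gm43352, with 3 to 13 counts, both small beside 357 to 2087 Lef1 counts. For Tcf7l2 it is Ppnr on the same strand, with 256 to 977 counts beside 3205 to 11686. Of several genes that overlap Tcf7l1, Gm37736 on the same strand had the most, 18 to 147 counts beside 548 to 1546. Tcf7 is overlapped by Gm26551 (11 to 55 counts) and A630014C17Rik (4 to 65), beside 211 to 842. Gm11670 had 6 to 56 counts beside 742 to 1581 of Axin2, and Gm8062 at most 5 beside 30 to 195 of Nkd2.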

How the data were processed

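RNA of 5 libraries is given as 1 table, in which the deposited values are expected counts and TPM for 30840 features. Of the expected counts deposited by the authors, 60.4% were not whole, so all were rounded before testing. The deposited TPM values had been corrected for transcript length by the authors. Tools named in the submitters' processing notes, without roles, are RSEM 1.3.3, STAR 2.7.9a and DESeq2 1.38.2, with build mm39.

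All 5 libraries entered an edgeR 4.0.16 quasi-likelihood test (R 4.3.3) with filterByExpr, TMM and group only, adjusted by Benjamini-Hochberg over all genes tested (threshold 0.05). DESeq2 1.42.0 and limma 3.58.1 were run as alternatives. In CPM, computed on TMM-scaled library sizes, 1 count equals 0.0203 to 0.0793. A fold change is PRC1 i2KO divided by Control, and its standard error is the log2 fold change over the root of F. Implied lengths are count over TPM, scaled on genes of 1 transcript (454 to 1366 per library, at least 200 counts and 1500 bases), whose GENCODE M21 lengths were all met within 1 base. Tcf7l2 has another version there. The fit was tested on simulated data. The genes and lists were chosen with earlier results of these data known. In the wider WNT list, the 6 genes of smallest p and the 3 of highest control TPM in each role were named.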

Additional observations from a re-analysis of the deposited data

How the results depend on the processing

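Of the 10 genes, Lef1, Tcf7, Tcf7l2, Sfrp1, Wif1 and Fzd10 kept their direction under all 15 alternatives, and no gene but Lef1 was called under any of them. Lef1 was called by DESeq2 (1.49, adjusted p = 0.00227), by edgeR with no filter (1.49, 0.0492) and with a block by title number (1.45, 0.0238), and by no other alternative. In the block by title number, PRC1 i2KO 1 is alone under its number and adds nothing to the difference between groups. In fits on all 5 libraries, reversed were Tcf7l1 (0.06) and Axin2 (0.17) in limma-voom and Axin2 with length offsets (0.03). Nkd2 was reversed with the block by title number (-0.24), and Dkk3 at -0.14 under each of the 3 TPM fits. With a library left out, reversed were Tcf7l1 without Control 3 (0.22) or PRC1 i2KO 2 (0.02), Axin2 without Control 3 (0.51) and Nkd2 without PRC1 i2KO 1 (-0.08). Leaving out each library in turn gave ranges of -0.25 to 0.22 for Tcf7l1, -0.56 to 0.51 for Axin2, -0.08 to 1.66 for Nkd2 and 1.06 to 2.06 for Lef1. The causes were not tested.

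Against 28 genes higher and 0 lower over all genes, DESeq2 called 745 and 163, limma-voom 4 and 0, edgeR with no filter 140 and 12, edgeR with length offsets 14 and 1, limma on log2(TPM + 1) 2 and 1, on log2(TPM + 0.1) 7 and 5, and on all features 0 and 0. Leaving out each library gave 4 to 39 higher (4 without Control 2, 39 without PRC1 i2KO 2) and 0 to 4 lower. The median of the 10 genes was 0.09, 0.10 and 0.09 in the 3 TPM fits and 0.12 to 0.49 with a library left out. That of the wider list was -0.13, -0.17 and -0.09 in the TPM fits, where all genes had -0.19, -0.33 and -0.12, then 0.18 with length offsets and 0.05 to 0.22 with a library left out. The difference in the Lef1 share of the family was 5.98 to 10.63 points with a library left out and 7.62 with lengths held fixed, alternatives chosen after seeing the data.

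Numbers shared by title need not pair the samples. Deviations of same-numbered libraries from their group means correlated over genes at 0.0645 and 0.0409 by title, and at -0.0237 and -0.0645 by description. With 2 controls, the deviations of the controls mirror each other, so these values cannot decide whether samples are paired. With the replicate block by title, 140 genes were higher and 25 lower, the median of the 10 genes was 0.12 and Nkd2 was at -0.24. In the fit without PRC1 i2KO 1, the library alone under its title number, that median was also 0.12 and Nkd2 was at -0.08. With the block by description, chosen after seeing the data, 10 genes were higher and 0 lower, and there PRC1 i2KO 3 is the library alone under its number. The smallest library, Control 3, limits Fzd10 with 6 counts and Nkd2 with 30.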

Other observations

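Of the 78 WNT pathway genes in the table, 8 fell below the filter on low counts, and Notum is singled out here after its values were seen. Notum encodes a secreted enzyme that inactivates WNT ligands and is itself a known WNT target. It had 0 counts in both controls and 6, 7 and 77 counts in PRC1 i2KO 1, 2 and 3, equal to 0.275, 0.158 and 2.44 CPM. The mean of 0.956 CPM was at least 19.7-fold higher than 3 counts over both controls (0.0485 CPM), a value that rests mostly on PRC1 i2KO 3. DESeq2, which ran without that filter, called it higher (adjusted p = 0.0491), and edgeR with no filter did not (adjusted p = 0.206). The secreted inhibitor genes Sfrp4, Sfrp5, Dkk2, Dkk4 and Cer1 had at most 30 counts in any library, and the ligand co-factor genes Rspo2 and Rspo3 at most 8.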
